A study of Mus musculus with 6 samples.

Results

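Whole lung RNA of 3 untreated and 3 irradiated libraries was assembled into transcribed loci that lie outside every reference gene, and 938 such loci are described here. The members were chosen by a rule on presence. In each library's table, rows without a gene name that overlap no named row on either strand were taken, overlapping rows of the same sequence and strand were merged across libraries, FPKM were summed per library, and a locus was kept where at least 3 libraries held it. Merging gave 4646 loci, of which 938 (20.2%) met this minimum. FPKM scales a transcript's fragments by its length and by the library's total.

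All 6 libraries came from wild-type (WT) female C57BL/6N mice, from whole lung tissue, at 100 days. The control group (3 libraries) had no treatment. The irradiated group (3 libraries) was given 20 Gy at once, as electrons of 9 MeV. The study is about radiation pneumonitis, the lung inflammation that follows irradiation, and the part that neutrophils and IL-17-making γδ T cells have in it. The labels give neither the age of the animals nor the part of the body exposed. Whether each library is its own mouse is not stated either, and the p-values below reflect library-to-library spread, possibly technical.

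Transcription outside annotated genes has several known forms. Many promoters of protein-coding genes, above all those rich in CG dinucleotides, start transcription in both directions, so that a second RNA leads away from the gene on the opposite strand. Processed pseudogenes are copies of spliced messenger RNA that were written back into the genome; they lack introns, often keep a sequence close to that of their source gene, and short reads from one can align to the other. An assembler usually takes the strand of a transcript from its splice sites where the library itself carries no strand, so an unspliced transcript can be left without one. Long noncoding RNAs and extended ends of known genes make up other parts of such assemblies.

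The loci have coordinates in the GRCm39 build, and sequence of that build was not used here. In its place, sequences that carry 2 of the patterns below are given from other annotations. The first are 90-base windows of processed pseudogenes that RefSeq of GRCm38 lists alone between the neighbours of a locus, taken from GENCODE M21 transcripts and shown beside the coding sequence they match best. Over their first 90 coding bases Tpt1-ps3, Gm9843 and Gm10123 had the same letters as Tpt1 (a translationally controlled growth protein), Fau (the precursor of a ribosomal protein) and Ppia (cyclophilin A). For Gm13456 and its match Eef1a1 (translation elongation factor 1 alpha) the window lies further in, at coding bases 863 to 952, and holds 4 mismatches, in capitals. Each window is the one without gaps that holds the most mismatches in the coding part. Over its whole alignment of 1390 bases Gm13456 had 19 mismatches and 26 gap bases.
Tpt1-ps3 and Tpt1: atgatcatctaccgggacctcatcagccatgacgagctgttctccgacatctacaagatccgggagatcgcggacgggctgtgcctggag
Gm9843 and Fau: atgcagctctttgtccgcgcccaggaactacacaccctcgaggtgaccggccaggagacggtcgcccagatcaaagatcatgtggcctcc
Gm10123 and Ppia: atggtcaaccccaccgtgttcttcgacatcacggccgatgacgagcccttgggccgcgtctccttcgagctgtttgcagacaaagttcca
Gm13456: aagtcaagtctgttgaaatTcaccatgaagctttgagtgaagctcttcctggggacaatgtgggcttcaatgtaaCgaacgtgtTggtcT
Eef1a1: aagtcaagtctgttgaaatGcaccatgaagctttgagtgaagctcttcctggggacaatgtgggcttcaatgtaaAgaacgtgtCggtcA

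The second are RefSeq promoters of GRCm38.p6 (300 bases, 5′ to 3′ on the gene's strand) of 2 genes with a locus that leads away from them on the opposite strand, with every CG in capitals. That of Ndufa6, a subunit of mitochondrial complex I, lies at chr15:82354242-82354541 on the minus strand and holds 27 CG. That of Klf11, a Krüppel-like transcription factor, lies at chr12:24651121-24651420 on the plus strand and holds 42 CG.
Ndufa6 promoter: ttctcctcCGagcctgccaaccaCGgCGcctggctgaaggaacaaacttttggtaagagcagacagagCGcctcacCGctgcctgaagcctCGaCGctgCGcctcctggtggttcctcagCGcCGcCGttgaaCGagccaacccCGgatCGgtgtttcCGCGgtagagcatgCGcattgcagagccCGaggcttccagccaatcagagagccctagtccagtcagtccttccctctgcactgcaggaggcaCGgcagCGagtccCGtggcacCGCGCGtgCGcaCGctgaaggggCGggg
Klf11 promoter: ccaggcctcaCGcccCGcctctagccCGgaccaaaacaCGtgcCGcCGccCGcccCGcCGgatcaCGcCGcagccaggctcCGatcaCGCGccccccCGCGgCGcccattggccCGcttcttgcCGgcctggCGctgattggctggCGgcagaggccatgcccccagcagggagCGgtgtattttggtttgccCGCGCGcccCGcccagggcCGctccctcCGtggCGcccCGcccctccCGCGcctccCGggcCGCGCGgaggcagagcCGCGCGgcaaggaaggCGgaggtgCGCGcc

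The loci made up a small part of each library. Between 634 and 720 of the 938 were present per library (in controls 688, 681 and 667; in irradiated libraries 634, 720 and 635). They held 0.477%, 0.484% and 0.548% of the FPKM of all assembled rows in the controls, and 0.695%, 0.743% and 0.561% in the irradiated libraries. The 3 irradiated shares were all above the control shares, irradiated 3 by little. Part of this came from 2 high loci, near Fgfr4 and Gm46796: without them, a check added after seeing the data, the shares were 0.447%, 0.443% and 0.4996% in controls and 0.566%, 0.525% and 0.512% in irradiated libraries. No test was run on them, since presence chose the loci. In bulk tissue, fewer cells of a type and less RNA per cell cannot be told apart. Rows outside genes were 5.39% to 7.86% of assembled rows. The depth implied by the deposited coverage was between 5.1 and 10.36 Gb per library. Irradiated 2, the library with the most rows outside genes, was also the deepest.

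Most merged loci were seen once. Of the 4646, 3022 (65.0%) were assembled in exactly 1 library and 686 in exactly 2. Among the members, 339 were in exactly 3, 220 in 4, 146 in 5 and 233 in all 6. At the edge of the rule, the 3 highest loci of exactly 3 libraries included chr11:48904912-48906808 near Gm42074, with 13.4 FPKM in control 2 and 14.8 and 12.7 in irradiated 1 and 3. Just outside it, chr8:107403204-107407937 near Tango6 was at 29.7 in irradiated 2 and 9.75 in irradiated 3 and was assembled in no other library. A locus missing from a library is a missing assembly and not a measured level of 0.

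**Figure D1:**
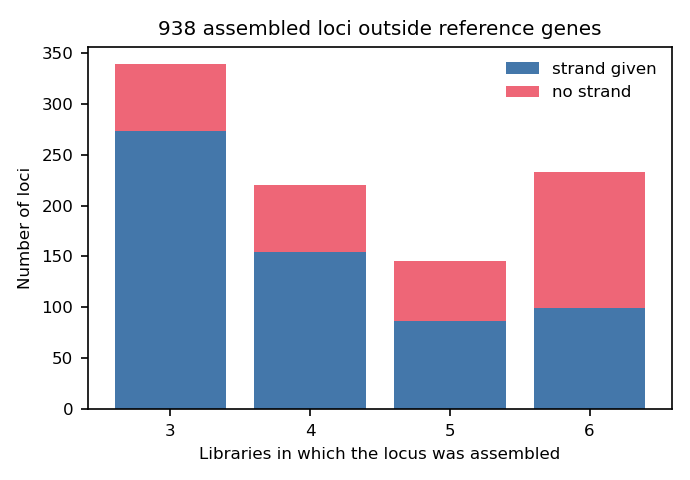
Number of the 938 loci (y axis) by the number of libraries in which they were assembled (x axis), split into loci with a strand (blue) and without one (red). Loci without a strand are 66 of the 339 in exactly 3 libraries and 134 of the 233 in all 6.

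Loci with and without a strand differed in length and in how often they recurred. A strand was given for 613 loci (330 plus and 283 minus), and 325 (34.6%) had none. Those without a strand were short, with a median span of 1385 bp (224 to 12604), against 7369 bp for loci with one, the longest of which spanned 202879 bp. They were also found in more libraries: 134 of 325 (41.2%) were in all 6, against 99 of 613 (16.2%) of the loci with a strand. Missing strands were far more common outside genes than over them. Per library, 20.6% to 27.7% of rows outside genes had no strand, against 0.467% to 0.734% of assembled rows that overlap a reference gene.

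The 5 longest stranded loci assembled in all 6 libraries were low, and all but the one near Galnt18 were uneven. The locus chr15:61404832-61552918 (plus strand, near D030024E09Rik) spanned 148087 bp, with 0.849, 0.294 and 0.943 FPKM in the controls and 0.700, 0.685 and 0.457 in the irradiated libraries. The groups overlapped. The other 4, near Cxcr4 (a chemokine receptor), Gm26048, Gm35533 and Galnt18 (a glycosyltransferase), ranged from 0.148 to 1.22 FPKM, and their groups overlapped, except that those of the locus near Galnt18 did not (0.383, 0.408 and 0.315 in controls, 0.427, 0.440 and 0.420 in irradiated). None of the 5 reached the mean of 1 FPKM needed for a test.

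The loci lay at a median of 6319.5 bp from a reference gene. Of the 938 loci, 199 lay under 1 kb from a gene, 227 at 1 to 5 kb, 411 at 5 to 50 kb and 101 beyond 50 kb, up to 669876 bp. The 5 farthest loci in all 6 libraries had no strand. They lay near Amot, Gm41243, Gm39232, Gm40552 and Cdk5rap2, and were at 0.861 to 11.6 FPKM.

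Close to genes, the most common place of a stranded locus was upstream and on the opposite strand, the arrangement of divergent transcription. Under 1 kb, 75 of 159 stranded loci (47.2%) lay there, against 28 upstream on the same strand, 32 downstream on the same strand and 24 downstream on the opposite strand. That share was 26.2% (37 of 141) at 1 to 5 kb, 19.6% (53 of 270) at 5 to 50 kb and 18.6% (8 of 43) beyond 50 kb. Distance and strand were not used to choose loci, other than by the absence of an overlap. Rows joined to a gene overlap it and were left out, and how this loss falls by side and strand was not tested. No test was run on these counts.

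**Figure D2:**
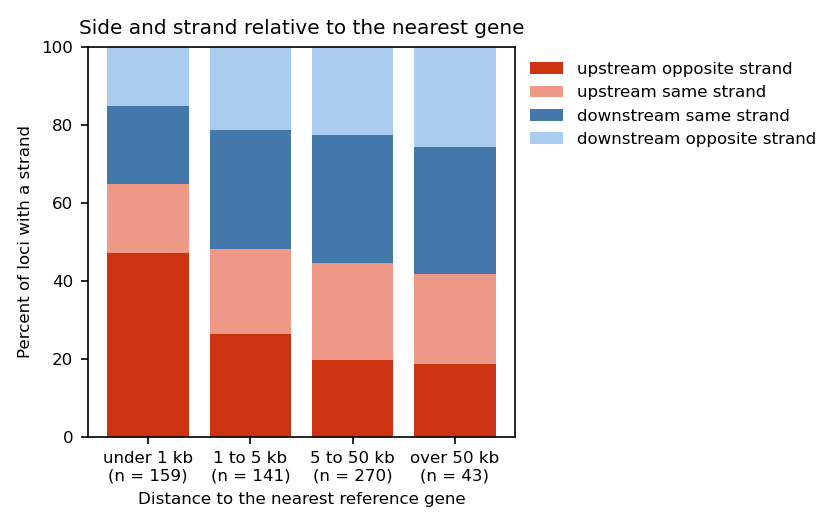
Percent of loci with a strand (y axis) that lie upstream or downstream of the nearest reference gene, on its strand or the opposite one, in 4 classes of distance (x axis, with the number of loci). The share upstream on the opposite strand (dark red) falls from 47.2% under 1 kb to 18.6% beyond 50 kb.

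Promoters of the genes beside these 75 loci were rich in CG, at about the level of genes transcribed in these lungs. Of the 75 genes, 61 matched a 300-base RefSeq promoter. Their median GC content was 61%, and 49 of the 61 (80.3%) held at least 10 CG, counted as the letters CG, which read the same on both strands. Among all 27025 promoters of this length the values were 52.7% GC and 43.9% with at least 10 CG. Among the 10613 matched genes whose mean reached 1 FPKM they were 60.7% and 78.8%, so the promoters beside divergent loci stood close to those of such genes. Some of the 75 genes were themselves near 0, such as Gm5493 (at most 0.0237 FPKM) and Gm41626 (at most 0.0255).

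Examples of divergent pairs, chosen after their values were seen, differed in how steady the locus was. The locus chr15:82238535-82252161 (plus strand, 42 bp from Ndufa6) ranged widely in both groups, with control values of 4.85, 13.3 and 15.9 FPKM and irradiated values of 19.6, 4.04 and 11.6. A second member without a strand, chr15:82240347-82252185, covers most of the same place, at 15.1, 12.2 and 15.1 FPKM against 18.6, 5.14 and 12.2, so the place is split by strand. Ndufa6 itself was at 57.5, 73.8 and 64.8 against 51.9, 55.9 and 65.6 FPKM. By contrast the locus chr12:24685461-24701105 (minus strand, 264 bp from Klf11) was steady, at 1.41, 1.70 and 1.00 in the controls and 1.38, 1.14 and 1.63 in the irradiated libraries. Klf11 was at 9.73 to 12.4 FPKM. RefSeq lists a pseudogene, Gm6969, between the neighbours of this locus, with an identity of 97.7% to Cox7a2l, which had a mean of 89.5 FPKM. Divergent loci near Lsm8, Rala and Slc6a14 also have a pseudogene placed in this way. The part of such copies in the levels of these loci was not tested. Beside Med26, a subunit of the Mediator complex, the locus chr8:73302282-73313769 was at 1.88, 2.42 and 2.14 in the controls and 1.85, 1.23 and 1.42 in the irradiated libraries; its groups did not overlap, and its log2 change was -0.34 ± 0.15 (SE; limma adjusted p = 0.296). Other genes with such a locus include F3 (tissue factor, which starts coagulation), at 14 bp, and Npr1 (a natriuretic peptide receptor), at 5 bp.

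Between the genes that flank a locus without a strand, RefSeq often places a pseudogene that the tables do not list. By symbol the tables hold 239 of the 9955 pseudogenes of RefSeq for GRCm38. For 870 of the 938 loci the flanking genes were also neighbours in that build, so the features between them could be read by name, without converting coordinates. At least 1 pseudogene stood between the flanking genes for 192 of 294 loci without a strand (65.3%) and for 204 of 576 with one (35.4%). The gaps between flanking genes differ in size and hold other sequence, so this places a pseudogene near a locus and not on it.

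Where a pseudogene was the single unlisted feature between the flanking genes, unstranded loci went with pseudogenes nearer in sequence to a coding gene. There were 220 such loci; 170 had a GENCODE sequence for the pseudogene, and 169 of those matched a coding transcript. In the 85 without a strand the median identity to the best coding match was 99.1%, 45 were at 99% or more, and the locus was 1.48 times as long as the pseudogene in the median. In the 84 with a strand the median identity was 92.2%, 3 were at 99% or more, and the locus was 15.95 times as long. The best matches include housekeeping genes such as Eef1a1, Tuba1b (tubulin) and Hnrnpk (an RNA-binding protein).

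Most of the unstranded loci stood well below their coding matches. Where genes tied as the best match, the one of highest mean FPKM was taken. This choice can lower the percentages below, and how many loci it touched is not given here. Of the 85, 41 were tested, at a median of 4.78% of the FPKM of the gene, and 4 of the 41 exceeded it. The locus of Gm9794, chr6:66852264-66852756, was at a mean of 4.29 FPKM against 3.04 for Rpl23, a ribosomal protein gene. The matches of the other 3, named after their values were seen, were under 1 FPKM and so not tested: Gm14400 was at 3.28 against 0.0148 for Zfp966, Gm16531 at 2.19 against 0.857 for Ulbp1, and Gm4332 at 1.74 against 0.810 for Rps20. Of the 44 loci not tested, 2 exceeded their match with absent libraries at 0 (H2-Q3 over H2-Q1 and Rps15a-ps7 over Rps15a). In the 38 pairs with both tested, the median was 4.76% (0.358% to 141%). The locus at chr6:99854564-99855381, between whose neighbours Tpt1-ps3 lies, had control values of 58.4, 49.9 and 47.2 FPKM and irradiated values of 46.6, 47.4 and 58.0. Tpt1 was at 1113, 1157 and 1125 against 966, 958 and 1133 FPKM, with overlapping groups for both. The locus of Gm9843, chr16:76200089-76200644, had a mean of 25.3 FPKM against 373 for Fau, and that of Gm10123, chr9:96777357-96778563, had 23.2 against 489 for Ppia. The locus of Gm13456, chr2:40445696-40447457, had 13.6 against 1769 for Eef1a1. In this paragraph a locus is named by the pseudogene listed between its neighbours, and whether it is that copy was not tested. The pseudogenes share sequence with their genes, and how the counting divided reads between such copies is not stated. The levels of these loci are therefore uncertain. Locus levels also come from the unnamed rows and gene levels from the named rows, which are 2 quantifications of the same reads. In the named rows ribosomal protein genes, Rpl23, Rps20 and Rps15a among them, were low throughout (76 genes, median of mean FPKM 3.91).

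**Figure D3:**
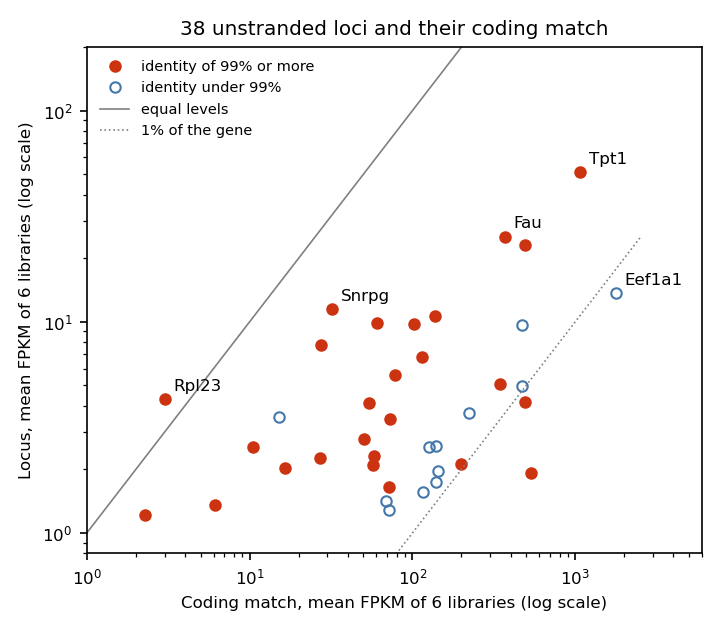
Mean FPKM over 6 libraries of 38 loci without a strand (y axis, log scale) against that of the coding gene best matched by the pseudogene between their neighbours (x axis, log scale), filled red at an identity of 99% or more. The grey line marks equal levels and the dotted line 1% of the gene; 1 locus, the one matched to Rpl23, lies above the line of equal levels; matches with a mean under 1 FPKM are not plotted.

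Changes of locus and match went the same way in 27 of 38 cases. Negative changes were the more common kind: 40.2% of tested unstranded loci and 44.2% of all features were positive. Some agreement in sign follows from this alone, and how much was not worked out. Some genes, such as Ppia and Tuba1b, are the match of more than 1 of the loci. Across these 38 loci the log2 changes had a Pearson r of 0.37 (Spearman rho 0.38) and the log2 levels an r of 0.49 (rho 0.38). Both come from the same 6 libraries and may come partly from shared sequence, so they are descriptions with no test. An example, chosen after its values were seen, is the locus chr2:151300812-151302198 (Gm14150). It was at 2.89, 2.89 and 4.39 FPKM in controls and 1.54, 2.47 and 1.30 in irradiated libraries. Its match Tuba1b was at 160, 175 and 166 FPKM in controls and 120, 94.9 and 120 in irradiated libraries. The log2 change of the locus was -0.67, and that of Tuba1b was -0.58 ± 0.12 (SE, limma adjusted p = 0.0937). Another locus matched to Tuba1b, that of Gm17383, had a log2 change of -0.23 with overlapping groups.

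For levels in irradiated against control lung, no locus passed the test in the main analysis. limma was fitted on log2(FPKM + 1) over one table of 14076 features, namely reference genes and loci that averaged 1 FPKM or more, the loci also assembled in all 6 libraries. Of the 938 loci, 233 were in all 6 and 168 of these were tested (132 without a strand, 36 with one); as the loci were kept by presence and level, the 168 do not stand for all 938. For 6 of the 168, 1 group mean was under 1 FPKM (the control mean in 3, the irradiated mean in 3), so that they passed through the higher group. None of the 168 had an adjusted p under 0.05, where 25 of the 14076 features did, a background of 0.178% (9 higher, 0.0639%, and 16 lower, 0.114%). At an unadjusted p under 0.05 there were 26 loci (15.5%; 15 higher and 11 lower) against 17.7% of all features (7.42% higher and 10.3% lower). The groups did not overlap for 40 loci (20 higher and 20 lower), which is 23.8%, against 24.5% of all features (9.93% higher and 14.6% lower). The share of positive changes was 41.1% of loci and 44.2% of features, and the median log2 changes were -0.050 and -0.032. The count of 0 rests on single libraries and on the scaling. Of 169 loci 1 passed without irradiated 1, and of 168 loci 3 passed without irradiated 3. Of 168 loci 2 passed with FPKM rescaled to a common sum. All of them were higher and all are among those named next. Calls over all features rose as well in these settings, to 101 of 14033, 121 of 13997 and 43 of 14080.

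The 5 higher loci with the smallest p and separate groups lay in 4 places. The locus chr8:122559838-122560985 (no strand, 2556 bp downstream of Gm24283) stood at 1.48, 1.64 and 0.849 FPKM in control lung and at 5.10, 5.45 and 4.28 in irradiated lung. The groups lay well apart, and the log2 change was 1.36 ± 0.17 (SE; limma adjusted p = 0.0503). A second locus in the same gap, chr8:122561298-122567904 on the plus strand, was at 8.01, 8.58 and 3.51 against 29.7, 31.2 and 20.3 FPKM, a log2 change of 1.92 ± 0.32 (adjusted p = 0.0777). RefSeq of GRCm38 lists Gm42048 between the flanking genes. Gm24283 itself was at 0 in the tables.

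On chromosome 2, the locus chr2:75468300-75475046 (no strand, near Gm39859) was among the 10 highest loci as well. Its control values were 24.8, 24.1 and 24.0 FPKM and its irradiated values 72.5, 53.3 and 48.0, so that control values lay within 1 FPKM of each other and all irradiated values were above them. The log2 change was 1.20 ± 0.15 (SE; limma adjusted p = 0.0505). Its neighbour Gm39859 had a mean of 0.226 FPKM and was not tested. Also on this chromosome, chr2:84726124-84737640 (plus strand, 7138 bp upstream of Rtn4rl2 on the opposite strand) was at 1.13, 0.998 and 1.36 against 4.18, 5.13 and 2.10 FPKM (1.10 ± 0.25, adjusted p = 0.115). Rtn4rl2, a Nogo receptor homologue, was at 1.04, 1.20 and 0.985 against 4.22, 2.33 and 2.13 FPKM (0.87 ± 0.21, adjusted p = 0.121), so that locus and gene both had separate groups, with higher values after irradiation. The fifth, chr8:12055630-12065989 (minus strand, 149868 bp from Tex29), was at 0.728, 0.389 and 0.608 against 1.86, 1.69 and 1.66 FPKM. It reached the minimum mean only through the irradiated libraries, so its place among the 5 is no support for a difference and no p is given.

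Among the 5 lower loci with the smallest p, none had a log2 change beyond -0.84. The locus chr4:69843478-69844411 (no strand, 290680 bp from Cdk5rap2, a centrosome protein) had 4.44, 3.42 and 4.56 FPKM in control lung and 2.03, 2.26 and 1.504 in irradiated lung. Its log2 change was -0.81 ± 0.16 (SE; limma adjusted p = 0.0831), and that of Cdk5rap2 was 0.03 ± 0.12. The locus chr1:173602027-173630303 (minus strand, 7420 bp upstream of Ifi204) was at 5.46, 3.94 and 5.83 against 1.99, 2.32 and 2.84 FPKM (-0.84 ± 0.17, adjusted p = 0.0866). It lies among interferon-inducible p200 genes, and Ifi203-ps stands between its neighbours. Ifi204 was at 3.78, 2.61 and 3.397 against 4.44, 6.80 and 3.10 FPKM and Ifi203, the coding match, at 14.3, 13.5 and 12.4 against 15.2, 10.6 and 8.65, with overlapping groups for both. A further pair lies near Lypd4 (chr7:24561627-24562101) and 4930455B14Rik (chr14:13669264-13670478), with log2 changes of -0.50 and -0.41 and adjusted p of 0.120 and 0.146. The last, chr7:47773923-47781954 near Gm51464, was at 1.47, 1.47 and 1.38 against 0.955, 0.488 and 0.419 FPKM. It reached the minimum mean only through the controls, and no p is given for it.

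**Figure D4:**
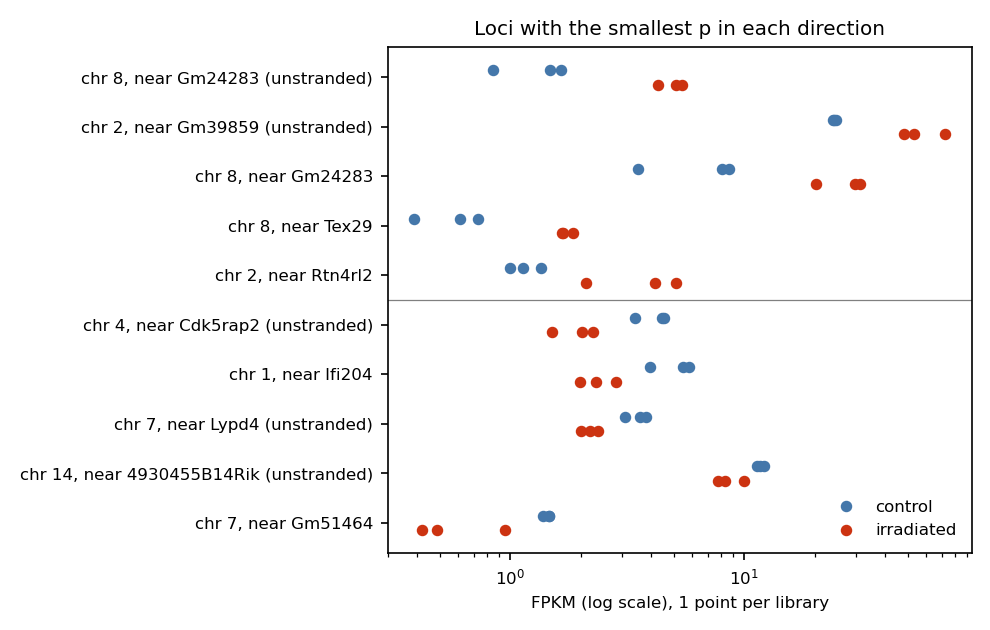
FPKM in each library (x axis, log scale) of the 5 higher loci (above the grey line) and the 5 lower loci (below it) with the smallest p among tested loci with separate groups; blue points are controls and red points irradiated libraries. No pair of groups overlaps, since that was part of the choice, and no locus has an adjusted p under 0.05.

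Merging across strands brought in further places. Rows were merged whatever their strand, as an alternative chosen after seeing the data. Of all 14104 features of that setting 26 passed. In it 266 loci were in all 6 libraries, 196 were tested and 1 passed. This place, chr13:68033089-68041439 near BC048507, had 1.77, 1.86 and 1.82 FPKM in control lung and 6.52, 5.92 and 7.41 in irradiated lung. The log2 change was 1.43 ± 0.11 (SE; limma adjusted p = 0.0251), and the groups lay far apart relative to the spread within each. BC048507 itself was under 0.1 FPKM in every library. Split by strand, part of the same place, chr13:68033188-68036543 without a strand, had a log2 change of 0.95 and did not pass. Another part, chr13:68038811-68039400 without a strand, was assembled in the 3 irradiated libraries (1.84, 1.05 and 1.25 FPKM) and, as such, in no control. The merged irradiated values include this part. The pass may therefore rest partly on presence, which the rule used, and it is no support for a difference. Merged in this way, the plus-strand locus near Gm24283 on chromosome 8 had a log2 change of 1.57 and an adjusted p of 0.119.

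Presence in a single group was seen for 44 loci. Of the members, 19 were assembled in all 3 controls and no irradiated library, and 25 in all 3 irradiated libraries and no control. Presence was what the rule used, so these counts are descriptions. The levels were low: among the 5 highest of each kind, the values ranged from 0.729 to 1.94 FPKM in controls and from 0.984 to 2.79 in irradiated libraries. For 8 of the 19 and 9 of the 25, some assembled row covered the place in the other group. The clearest case is chr13:51788233-51793166 near Gm52049, assembled without a strand in the controls (1.63, 1.32 and 1.94 FPKM) and on the plus strand in the irradiated libraries (1.98, 2.79 and 2.25). Merged whatever the strand, its log2 change was 0.34 ± 0.15 (SE; limma adjusted p = 0.302). In all, 60 members overlapped another member on another strand.

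The highest loci had no strand, and several varied widely within a group. The locus chr13:55332269-55337400, near Fgfr4 (a fibroblast growth factor receptor), had control values of 28.4, 53.8 and 65.6 FPKM and irradiated values of 300, 306 and 62.4. Irradiated 1 and 2 were high and irradiated 3 lay within the controls (log2 change 1.92 ± 0.69 SE; limma adjusted p = 0.239), while Fgfr4 was at 12.5, 9.87 and 10.4 against 5.97, 5.19 and 9.65. The locus chr1:24650608-24655269 near Col19a1 was high in every library, at 142, 140 and 105 against 135, 92.2 and 133 FPKM. RefSeq of GRCm38 lists Tubb4b-ps2, Gm10222 and Gm10925 between its flanking genes. Whether any of them lies on the locus, or shares reads with it, was not tested. On an unplaced sequence, bases 1 to 1272 were at 38.2, 54.7 and 25.6 against 63.6, 114 and 84.6 FPKM, with separate groups (1.15 ± 0.31, adjusted p = 0.158). At chr4:149517957-149523654 near Ube4b, a ubiquitin ligase, values were 45.9, 70.3 and 74.7 against 58.6, 37.9 and 19.1, and the groups overlapped. At chr14:31837261-31843780 near LOC115488399 they were 49.6, 61.5 and 53.9 against 90.2, 43.5 and 31.9, with overlapping groups. The locus chr19:4110261-4116554 near Gstp3, a glutathione S-transferase, was at 23.0, 21.3 and 27.2 against 33.3, 26.5 and 41.5 FPKM (0.47 ± 0.17, adjusted p = 0.235).

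Some loci were set by 1 library. For 9 of the 168 tested loci (5.36%) the highest library was at least 2 times the next, against 272 of 13908 tested genes (1.96%), a count made after seeing the data and not tested. In 5 of the 9 this library was irradiated 2, in 2 control 3 and in 2 irradiated 3. Among the 272 genes, irradiated 1 led 112, irradiated 2 led 72 and control 2 led 54. The locus chr3:5925393-5925889, far from any gene with Gm46796 the nearest, had control values of 74.2, 92.2 and 92.7 FPKM and irradiated values of 98.9, 355 and 92.8. The other 4 led by irradiated 2 lie near Gm46033, Gm8579, Slc22a28 and Btbd16, at 69.5, 68.9, 29.6 and 19.7 FPKM there. Among reference genes, Lars2 (mitochondrial leucyl-tRNA synthetase) had the same pattern, at 9.56, 10.1 and 9.71 against 11.2, 29.9 and 11.4 FPKM, and Mir6236 was at 4.21 in irradiated 2 and at most 0.730 elsewhere. Lars2 and Mir6236 were named after their values were seen. Irradiated 2 was the deepest library and had the highest summed FPKM of the 10 neutrophil markers (4876, against 78.2 to 533 in controls) and of the 7 red cell markers (6255, against 1347 to 1709). The part of depth and of these cells in the locus levels was not tested.

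**Figure D5:**
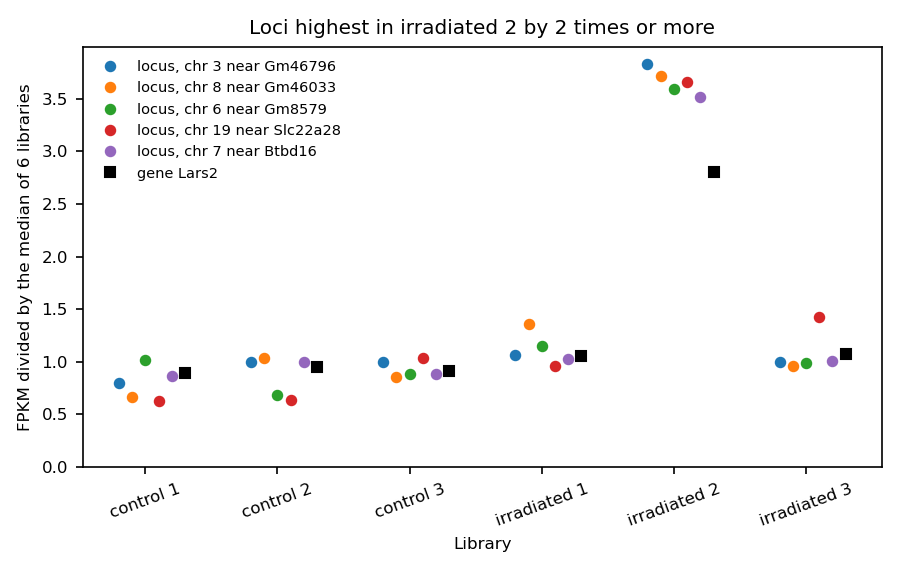
FPKM of each library divided by the median of the 6 libraries (y axis) for the 5 loci whose value in irradiated 2 was at least 2 times the next library, and for the gene Lars2 (black squares), by library (x axis). The points of irradiated 2 stand above all others for the 5 loci and for Lars2.

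Changes of tested loci were also set beside those of the nearest gene. The nearest gene was itself tested for 63 of the 168 loci. Across 26 loci under 5 kb from that gene, the log2 changes of locus and gene had a Pearson r of 0.17 (Spearman rho 0.21), and across 37 loci at 5 kb or more an r of -0.07 (rho 0.04). Split by strand, the 26 gave an r of 0.30 (rho 0.40) over 19 loci without a strand and -0.10 (rho -0.14) over 7 with one. These correlations share the 6 libraries and are descriptions with no test.

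Summed levels of marker genes differed between libraries, and of the cell type lists the lung list alone had separate groups; none was tested as a list. Summed FPKM of the 7 lung markers ranged from 49446 to 62165 in controls and from 28594 to 38171 in irradiated libraries, and that of the 12 p53 targets from 156 to 179 and from 330 to 484. Neutrophil and red cell markers overlapped between the groups (78.2 to 533 against 239 to 4876, and 1347 to 1709 against 1442 to 6255), as did the cardiac muscle and adipose lists (66.9 to 497 against 19.4 to 233, and 18.1 to 430 against 5.54 to 174). A sum is set mostly by the highest genes of its list. The median log2 change over the tested genes was -0.22 for the 7 lung markers and 2.22 for the 10 neutrophil markers. It was 0.76 for 5 red cell, -0.52 for 7 cardiac muscle, -0.14 for 5 adipose and 1.06 for 12 p53 genes. No marker of these lists was at 0 throughout. Their part in the levels of the loci was not tested. Of the 938 loci, 3 are flanked by a p53 target (Mdm2, Ccng1 or Trp53inp1) and 3 by a lung marker (Pecam1 for 2 and Cdh5 for 1), and none of the 6 was tested.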

How the data were processed

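Whole lung polyA RNA of 3 control and 3 irradiated libraries was used. fastp, STAR 2.7.6a, DESeq2 and the build GRCm39 are named, without roles, in the submitters' processing notes. How the tables were made, with which annotation and strand setting, is not given in the sources used here. The tables hold coverage, FPKM and TPM per row, per the file headers. The FPKM were analysed as deposited by the authors. The coverage deposited by the authors (signal per base) served only to estimate depth, from its ratio to FPKM. The named and unnamed rows are 2 quantifications of the same reads: the TPM of the unnamed rows alone sum to 1000000, so TPM was not used. As no counts were used, values carry no counting interval.

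Loci were built as the report describes. Coordinates are those of the files, counted from 1. limma 3.58.1 (R 4.3.3) with trend and robust variance was fitted on log2(FPKM + 1), a scale that understates changes near 1 FPKM, with the group as the only term. P-values were adjusted by Benjamini-Hochberg over all 14076 features. Group differences are irradiated minus control. Named loci follow a rule: the 5 smallest p per direction with separate groups, the 10 highest, 5 longest and 5 farthest in all 6 libraries, the 5 highest per group in presence, and those at the edge of the minimum. Members, lists and marker genes were chosen with earlier results of these data known. The descriptions of pseudogenes, promoters and single-library peaks were added after seeing the data. Pseudogene sequences (GENCODE M21) were aligned to coding transcripts with blastn 2.17.0 (e-value of at most 1e-10); promoters are from RefSeq. The fit was also run on simulated data, and no outcome is given here. Changes were set only in features above a level that the median tested locus (2.31 FPKM) does not reach. The simulation therefore does not cover changes in such loci. Tables used Python 3.11.15 and pandas 2.3.3.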

Additional observations from a re-analysis of the deposited data

How the results depend on the processing

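The number of loci that pass was 0 in the main analysis (26 at an unadjusted p under 0.05). It was 1 at a minimum mean of 5 FPKM, 2 with FPKM rescaled to a common sum, 1 with loci of at least 3 libraries and absent ones at 0 (the place near Gm52049 described above), 1 when merged whatever the strand, and 0 to 3 when leaving out each library in turn (1 without irradiated 1 and 3 without irradiated 3). Apart from the settings that merge across strands or add loci absent from some libraries, the called loci were those near Gm39859 on chromosome 2 (4 settings, adjusted p 0.0318 to 0.0495), the unstranded one near Gm24283 on chromosome 8 (0.0404 and 0.0478) and that near Rtn4rl2 (0.0318). Over all alternatives their adjusted p reached 0.274, 0.274 and 0.335. Calls over all features also moved with the setting. They were 39 of 9163 at a minimum mean of 5 FPKM and 43 of 14080 with a common sum. With absent loci at 0 they were 24 of 14164, and merged whatever the strand 26 of 14104. Leaving out a library gave 0 to 121. Without a minimum mean no feature of any kind was called (38 loci at an unadjusted p under 0.05). Same-numbered libraries did not deviate together (r of -0.174, -0.532 and -0.283); with the replicate block 0 loci and 0 features passed, and 20 loci had an unadjusted p under 0.05.

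Rescaling to a common sum moved the median log2 change of genes from -0.032 to 0.080, made 91 of 168 loci positive in place of 69, and turned the calls over all features to 31 higher and 12 lower from 9 and 16. The direction of named loci near 0 turned. With a common sum the change was 0.021 near Col19a1, 0.0011 near LOC115488399, 0.095 near Gm33143 (0.0085 with median-ratio scaling) and 0.079 near Gm40552. Leaving out each library in turn, it ranged from -0.25 to 0.069 near Col19a1 (positive without irradiated 2), -0.54 to 0.19 near LOC115488399 (positive without irradiated 3), and -0.13 to 0.054 and -0.17 to 0.030 near Gm33143 and Gm40552 (both positive without control 1, irradiated 1 or irradiated 2). The cause was not tested. Over named loci 13 values turned direction, 7 gained a call, 2 mean levels moved by more than the spread and 600 did neither. The number of loci was 1624 with at least 2 libraries, 599 with at least 4, 233 with all 6 and 539 when rows under 5 kb from a gene were left out before merging. That last count is not the sum of the distance classes, since a locus can lose its near rows and keep others. It was 947 merged whatever the strand, 942 with rows within 1 kb merged, and 751 to 782 leaving out a library.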

Other observations

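Ribosomal protein genes were listed at low levels in the reference rows: 76 cytosolic ones, taken by symbol, had a median of mean FPKM of 3.91 and a highest of 14.7, where Tpt1 was at 958 to 1157. The median over these genes was 3.23 to 4.67 FPKM across the 6 libraries. Rpl23, Rps20 and Rps15a, each exceeded by an unstranded locus matched to it, are among them. The cause was not tested.

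Of the 938 loci, 5 lay on chromosome Y, 2 on unplaced sequences and 0 on the mitochondrial sequence. The locus chrY:42994757-42995635 had 1.18, 1.03 and 1.52 FPKM in control lung, and 3.32 and 1.74 in irradiated 1 and 3. The Y-linked genes Ddx3y, Uty, Kdm5d and Eif2s3y were below 0.002 FPKM in these libraries of female mice.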
